A study of Mus musculus with 6 samples.

Results

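The genes of cholesterol synthesis, of its control by SREBP2 and of sterol export were followed in mouse liver RNA. They are 29 genes chosen by name from a table of 52550 Ensembl gene identifiers. The rule uses no measured value, although the list was drawn up with earlier results of these data known. They comprise 18 enzymes of cholesterol synthesis, 4 genes that control SREBP2, 2 genes of sterol transport and receptor turnover, and 5 genes of sterol sensing and export. All 29 were matched by symbol, and all 29 passed the filter on low counts that left 14031 genes for testing. The samples were livers of male mice aged 8 weeks. TG denotes mice labelled Slc7a11-LTG (n = 3), which carry a transgene of the cystine/glutamate antiporter subunit Slc7a11, and WT denotes control mice (n = 3). Both groups had eaten an MCD diet, which is deficient in methionine and choline, for 1 week, so every value describes livers on that diet and no group on another diet was analysed here. The sources used here give neither the promoter of the transgene nor the number of founder lines, the meaning of LTG, the time of collection or the feeding state.

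Cholesterol is built in the liver from acetyl-CoA. The mevalonate enzymes make farnesyl diphosphate, the squalene enzymes join and cyclise it to lanosterol, and the late sterol enzymes trim lanosterol to cholesterol. When sterols in the endoplasmic reticulum are scarce, Scap escorts the transcription factor SREBP2 (gene Srebf2) to the Golgi for cleavage, and the released factor raises transcription of the synthesis genes; Insig1 and Insig2 hold the complex back when sterols are plentiful. Oxysterols and cholesterol precursors activate the nuclear receptor LXRα (gene Nr1h3), whose targets Abca1, Abcg1, Abcg5 and Abcg8 carry sterols out of cells, the last pair into bile.

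The libraries held 16016640 to 17463329 counts, and CPM are these counts scaled to a common library size with TMM factors. On that scale 3 counts, the smallest number taken as different from 0, equal 0.152 to 0.227 CPM, and every member had at least 6 counts in every library. Values of 3 libraries are listed in the order of replicates 1, 2 and 3. Slc7a11 lay at 4416, 1377 and 2907 CPM in TG and at 2.92, 3.33 and 10.6 CPM in WT, so the genotype labels and the transcript levels matched in all 6 libraries. In a principal component analysis of all tested genes, the first component held 42.3% of the variance. It placed TG replicate 3 at 1.92 and WT replicate 3 at 10.4, between the other TG livers at -39.3 and -69.5 and the other WT livers at 31.3 and 65.2. TG replicate 3 and WT replicate 3 thus stood closer to each other than to the rest of their groups, and 1 library at a time was left out to see which results moved. The liver label was checked against hepatocyte markers, whose sum ranged from 92115 to 108971 CPM in TG and from 94558 to 179073 CPM in WT, with Alb, Ahsg and Apoa1 the most abundant.

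In the comparison of TG with WT, 4 of the 29 genes were higher in every TG liver than in every WT liver. They were the synthesis enzymes Hmgcs1, Cyp51 and Nsdhl, at 1.5-fold, 1.74-fold and 1.49-fold, and the exporter Abcg1 at 2.27-fold. None of the 29 was lower in every TG liver. Among all tested genes, 9.22% lay higher in every TG liver and 6.14% lower. The same 4 genes were the ones at an unadjusted p under 0.05 in edgeR's quasi-likelihood test. At that threshold 8.68% of all tested genes were higher and 2.37% lower. No test of the 29 genes as a set was made, so the 4 are not read as exceeding these shares. After Benjamini-Hochberg adjustment edgeR called 0 of the 29 genes and 0 (0%) of the 14031. The transgene Slc7a11 was among the genes not called, although its adjusted p of 0.1644 was the smallest of all tested genes. Since edgeR missed even the transgene, its 0 calls do not show that the 29 genes were unchanged. DESeq2 called 1 of the 29, Abcg1, beside 2.78% of all genes (2.52% higher in TG). Limma voom called 0 of the 29, beside 0.00713% of all genes, which was Slc7a11 alone (adjusted p 0.02189). The log2 fold changes (TG against WT) had a median of 0.07 over the 29 genes and of -0.03 over all tested genes, and 16 of the 29 were above 0. Over the 18 synthesis enzymes the median was 0.31, and 12 of the 18 were above 0. Of all 14031 tested genes, 6483 were above 0. With 1 library left out at a time, 15 to 21 of the 29 and 10 to 14 of the 18 were above 0.

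**Figure D1:**
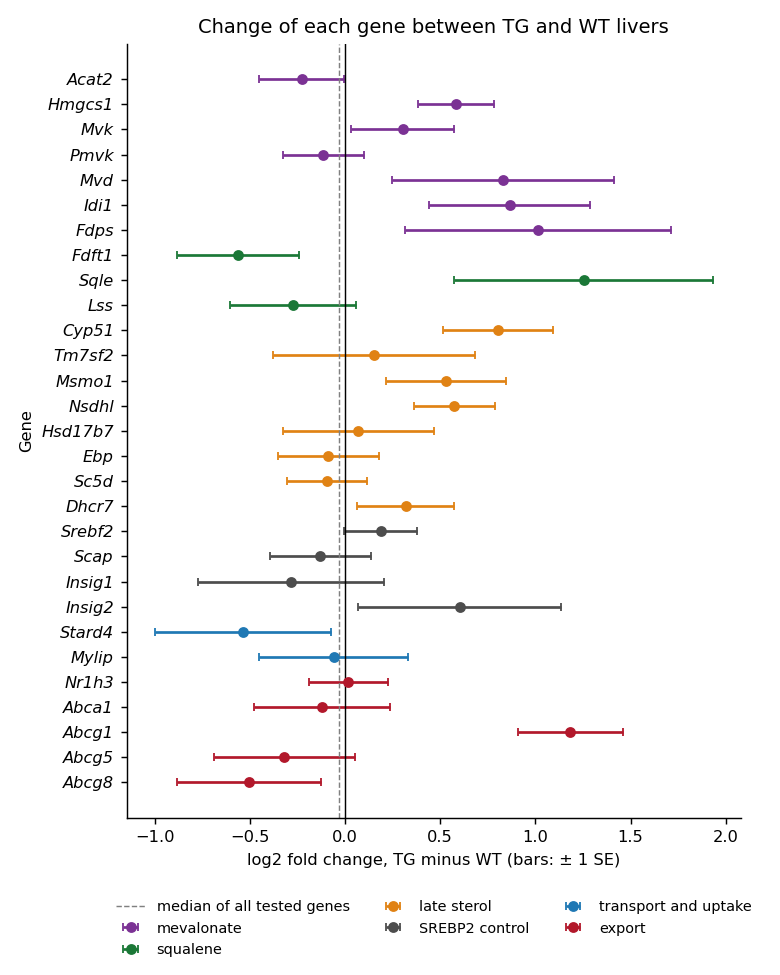
Log2 fold change of each of the 29 genes in TG against WT livers, grouped by role, with bars of 1 standard error (edgeR, n = 3 per group). Abcg1, Sqle and Fdps lie farthest above 0, at 1.18, 1.25 and 1.01, with the bars of Sqle and Fdps at 0.68 and 0.70 and that of Abcg1 at 0.28.

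Among the 7 mevalonate enzymes, Hmgcs1 was the one higher in every TG liver than in every WT liver. Hmgcs1 is the cytosolic HMG-CoA synthase, an early enzyme of the mevalonate pathway. TG livers held 127, 116 and 82.2 CPM of Hmgcs1, against 70.2, 72.9 and 74.3 CPM in WT livers. Every TG value was above every WT value, with TG replicate 3 nearest to WT. The means were 109 ± 23.6 and 72.5 ± 2.09 CPM (SD, n = 3 each), the log2 fold change was 0.58 (SE 0.20), and the unadjusted p of 0.02066 became an adjusted p of 0.3789 in edgeR's quasi-likelihood test with Benjamini-Hochberg adjustment. DESeq2 gave an adjusted p of 0.1777.

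Mvd, Idi1 and Fdps, which act in sequence on diphosphates late in the mevalonate segment, had larger fold changes with groups that overlapped. Mvd decarboxylates mevalonate diphosphate to isopentenyl diphosphate, and it lay at 11.2, 10.0 and 4.52 CPM in TG and at 2.03, 3.40 and 8.89 CPM in WT. Idi1, the isomerase of isopentenyl diphosphate, lay at 19.8, 18.5 and 11.9 CPM in TG and at 6.10, 5.75 and 15.5 CPM in WT. For Fdps, which joins these units to farnesyl diphosphate, TG livers gave 4.13, 2.20 and 1.47 CPM and WT livers 0.381, 0.908 and 2.496 CPM. In all 3 genes TG replicates 1 and 2 were above WT replicates 1 and 2, and WT replicate 3 was above TG replicate 3. Their log2 fold changes were 0.83 (SE 0.58), 0.86 (SE 0.42) and 1.01 (SE 0.70). With 1 library left out they ranged from 0.47 (WT replicate 1 out) to 1.65 for Mvd, from 0.62 (WT replicate 2 out) to 1.49 for Idi1 and from 0.52 (TG replicate 1 out) to 2.01 for Fdps, each highest without WT replicate 3. Fdps rested on 68, 39 and 29 counts in TG and on 6, 12 and 48 in WT, and it overlaps an annotated same-strand gene, Gm43738, that has 0 counts in every library, so its level is uncertain. Mvd overlaps Gm20388 on the opposite strand, also with 0 counts in every library, so the level of Mvd is uncertain as well.

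Acat2, Mvk and Pmvk showed smaller differences in both directions. Acat2, which condenses acetyl-CoA in the cytosol and has a near-identical neighbour in Acat3, lay at 23.1, 28.4 and 32.7 CPM in TG and at 24.3, 35.5 and 38.8 CPM in WT, a log2 fold change of -0.23. Mevalonate kinase (Mvk) lay at 8.87, 14.4 and 10.9 CPM in TG and at 6.98, 10.3 and 10.5 CPM in WT, a log2 fold change of 0.30. Phosphomevalonate kinase (Pmvk) lay at 13.9, 13.4 and 14.6 CPM in TG and at 11.6, 15.4 and 18.4 CPM in WT, a log2 fold change of -0.11. The groups overlapped in all 3 genes. The median log2 fold change of the 7 mevalonate enzymes was 0.58.

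The 3 squalene enzymes did not share a direction. Squalene synthase (Fdft1), which commits farnesyl diphosphate to sterols, lay at 54.8, 50.01 and 71.8 CPM in TG and at 55.1, 129 and 77.1 CPM in WT, a log2 fold change of -0.56 (SE 0.32) that ran from -0.81 without WT replicate 1 to -0.17 without WT replicate 2. Squalene epoxidase (Sqle), a rate-limiting oxygenase and a sensitive SREBP2 target, lay at 32.8, 33.2 and 20.1 CPM in TG and at 4.64, 4.54 and 26.6 CPM in WT. WT replicates 1 and 2 were far below every other liver, while WT replicate 3 lay among the TG livers. Sqle averaged 28.7 ± 7.45 CPM in TG livers against 11.9 ± 12.7 CPM in WT livers (SD, n = 3 each), the log2 fold change was 1.25 (SE 0.68), and the adjusted p was 0.5673 (edgeR). Its log2 fold change was 0.87 without WT replicate 1 and 2.64 without WT replicate 3. Lanosterol synthase (Lss), the cyclase, lay at 32.0, 25.7 and 30.0 CPM in TG and at 19.8, 33.1 and 53.04 CPM in WT, a log2 fold change of -0.27 with overlapping groups.

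Among the 8 late sterol enzymes, Cyp51 and Nsdhl were higher in every TG liver. Cyp51, the cytochrome P450 that demethylates lanosterol, lay at 59.4, 48.8 and 48.9 CPM in TG and at 21.4, 24.0 and 44.6 CPM in WT. The lowest TG liver was only slightly above the highest WT liver, again WT replicate 3. Means were 52.4 ± 6.09 CPM in TG and 30.0 ± 12.7 CPM in WT (SD, n = 3 each), with a log2 fold change of 0.80 (SE 0.29). The unadjusted p was 0.02622 and the adjusted p 0.386 (edgeR), and DESeq2 gave an adjusted p of 0.2285. The log2 fold change of Cyp51 was 0.61 without WT replicate 1 and 1.204 without WT replicate 3. Nsdhl, a sterol dehydrogenase of the demethylation that follows, lay at 15.97, 15.8 and 15.4 CPM in TG and at 9.40, 8.93 and 13.3 CPM in WT. The 3 TG livers lay close together, at 15.7 ± 0.268 CPM, and the WT livers at 10.5 ± 2.41 CPM. The log2 fold change of Nsdhl was 0.57 (SE 0.21), its unadjusted p 0.0293 and its adjusted p 0.3915 (edgeR), with 0.2787 from DESeq2.

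Msmo1 and Dhcr7 were higher on average in TG with overlapping groups. Msmo1, the sterol methyl oxidase that works with Nsdhl, lay at 53.98, 44.5 and 28.6 CPM in TG and at 21.0, 25.8 and 41.0 CPM in WT, a log2 fold change of 0.53. Dhcr7, the reductase that ends one branch of the pathway, lay at 33.6, 42.4 and 36.6 CPM in TG and at 25.0, 22.8 and 42.4 CPM in WT, a log2 fold change of 0.32. In both genes WT replicates 1 and 2 were the lowest livers. With 1 library left out, Msmo1 ranged from 0.32 (TG replicate 1 out) to 0.85 and Dhcr7 from 0.15 (WT replicate 2 out) to 0.65, each highest without WT replicate 3.

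The other late enzymes lay near equal means. The reductase Tm7sf2 lay at 34.4, 11.3 and 14.1 CPM in TG and at 21.8, 24.1 and 7.96 CPM in WT, and the ketosteroid reductase Hsd17b7 at 118, 51.6 and 48.8 CPM in TG and at 91.4, 69.7 and 47.4 CPM in WT. TG replicate 1 was the highest liver for both, and Tm7sf2 overlaps Vps51 on the same strand, which makes its level uncertain. The sterol isomerase Ebp lay at 128, 90.8 and 98.6 CPM in TG and at 121, 141 and 76.1 CPM in WT. The desaturase Sc5d lay at 231, 218 and 191 CPM in TG and at 192, 259.6 and 233 CPM in WT. Their log2 fold changes were 0.15, 0.07, -0.09 and -0.10, and each of the 4 changed sign under at least 1 alternative setting.

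**Figure D2:**
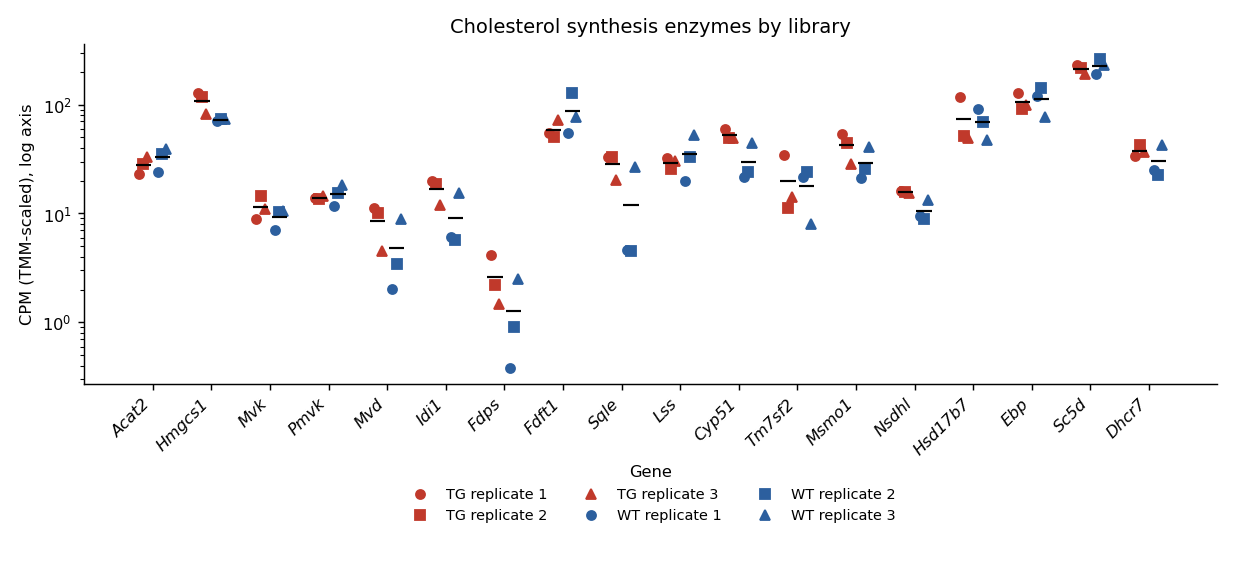
CPM of the 18 synthesis enzymes in each TG and WT liver (log axis, 1 point per mouse, lines at the group means). Hmgcs1, Cyp51 and Nsdhl are the 3 enzymes with every TG point above every WT point, and for Sqle WT replicate 3, at 26.6 CPM, lies among the TG points.

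Promoter sequence was compared between the enzymes whose groups separated and Mvd, to show where some known SREBP2 and NF-Y letters stand before their starts. SREBP2 binds sterol response elements, and NF-Y binds CCAAT boxes and assists SREBP2. RefSeq promoter windows (GRCm38.p6, the mm10 assembly) were found for 24 of the 29 genes, and none was found for Abcg1, Fdft1, Fdps, Sqle and Stard4. The 250 bases before each start were searched on both strands. The sterol response letters TCACNCCAC stood before 1 of the 24 genes, Hmgcs1, and in 1.05% of all 32851 windows and before 1.22% of all genes. Only exact matches were counted, so sterol response elements with other letters were missed and may stand before the other genes. CCAAT stood before 19 of the 24, among them 14 of the 15 matched synthesis enzymes, and in 33.8% of all windows and before 37.5% of all genes. Genes with several annotated starts had more windows to match. The letters TCACNTGA stood before 1 of the 24, Insig2, and in 3.46% of windows and before 3.98% of all genes. Each sequence below is written from 5′ to 3′ on the strand of its gene; capitals mark TCACNCCAC or CCAAT on either strand, the latter read as ATTGG when it is on the other strand. The Hmgcs1 stretch is chr13:119690101-119690350 (plus strand), the Mvd stretch chr8:122443423-122443672 (minus strand) and the Nsdhl stretch chrX:72918412-72918520 (plus strand), the last limited to bases outside annotated exons. The CCAAT match of Cyp51 lies in an annotated exon and is not shown.
Hmgcs1: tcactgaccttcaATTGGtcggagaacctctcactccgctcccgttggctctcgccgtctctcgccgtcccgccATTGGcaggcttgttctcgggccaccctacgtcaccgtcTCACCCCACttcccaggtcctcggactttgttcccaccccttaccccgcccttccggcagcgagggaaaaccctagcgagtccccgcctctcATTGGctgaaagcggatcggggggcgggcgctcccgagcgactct
Mvd: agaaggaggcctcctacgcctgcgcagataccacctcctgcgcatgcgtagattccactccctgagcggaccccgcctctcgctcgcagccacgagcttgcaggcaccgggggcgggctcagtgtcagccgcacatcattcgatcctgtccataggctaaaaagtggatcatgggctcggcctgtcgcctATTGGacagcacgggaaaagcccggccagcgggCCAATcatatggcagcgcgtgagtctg
Nsdhl: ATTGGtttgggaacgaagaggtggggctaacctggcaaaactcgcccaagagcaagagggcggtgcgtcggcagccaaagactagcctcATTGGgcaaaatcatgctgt
In the Hmgcs1 stretch the sterol response letters stood 137 to 129 bases before the start, between CCAAT matches at 176 to 172 and at 45 to 41. Mvd had CCAAT matches at 60 to 56 and at 27 to 23 bases and Nsdhl at 109 to 105 and at 20 to 16, and neither held TCACNCCAC. A match of letters describes the sequence and does not show binding in these livers.

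**Figure D3:**
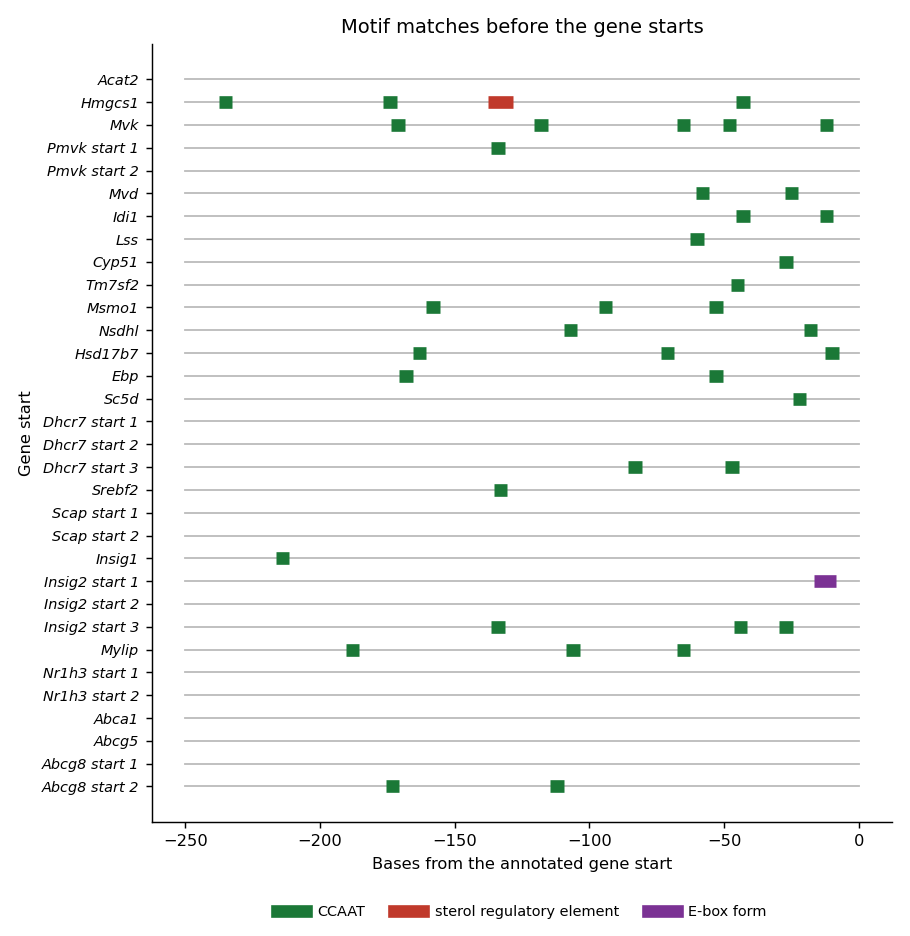
Positions of the searched motif letters in the bases before the start of each member with a RefSeq promoter window (x axis, bases before the start). CCAAT matches occur before 19 of the 24 genes, and the sterol response letters before Hmgcs1 alone.

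The synthesis enzymes also differed between livers of the same genotype. Relative to the WT mean of each enzyme, the median log2 level of the 18 enzymes was 0.72, 0.58 and 0.10 in TG and -0.39, 0.01 and 0.33 in WT. TG replicates 1 and 2 were thus highest and WT replicate 1 lowest, while TG replicate 3 lay below WT replicate 3. TG replicate 1 was the highest liver for 9 of the 18 enzymes and TG replicate 3 for 0, and WT replicate 1 was the lowest for 8. Among all 14031 tested genes, TG replicate 1 was the highest for 1695, TG replicate 3 for 1327, and WT replicate 1 the lowest for 2498. Leaving out WT replicate 3 raised the number of the 29 genes higher at an unadjusted p under 0.05 from 4 to 10, against 10.2% of all genes in that fit. The 10 were Hmgcs1, Mvd, Idi1, Fdps, Sqle, Cyp51, Msmo1, Nsdhl, Dhcr7 and Abcg1. Abcg5 and Abcg8 were lower in that fit, against 5.94% of all genes. Leaving out TG replicate 1 left 1 gene higher, Abcg1, against 6.13% of all genes. Leaving out TG replicate 2 left Cyp51 and Abcg1 (3.95% of all genes), WT replicate 2 left Hmgcs1 and Abcg1 (5.40%), and TG replicate 3 left Hmgcs1, Cyp51 and Abcg1 (9.91%). Without WT replicate 1, Insig2 and Abcg1 were higher (6.99%), and Fdft1, Insig1 and Stard4 were lower (2.53%). Abca1 was lower without TG replicate 2 (1.33%). Abcg1 was the 1 gene of the 29 at this threshold in all 6 of these fits.

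**Figure D4:**
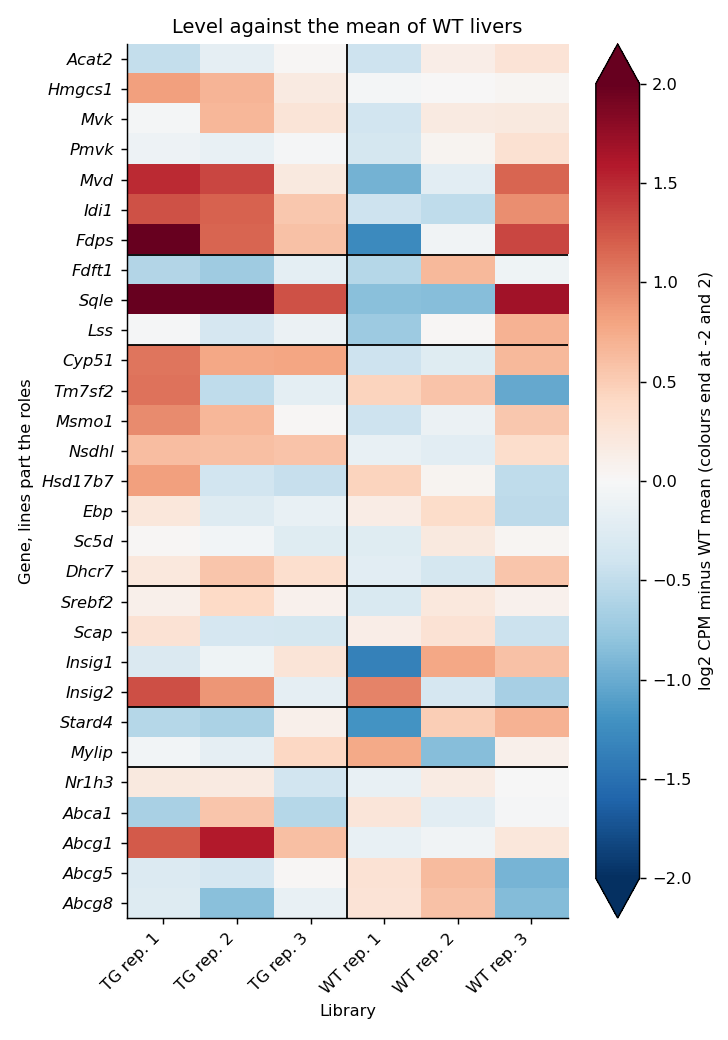
Log2 level of each of the 29 genes in each liver relative to the WT mean of that gene, by role. Most synthesis enzymes are above 0 in TG replicates 1 and 2 and below 0 in WT replicate 1, with medians over the 18 enzymes of 0.72, 0.58 and -0.39.

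WT replicate 3 also stood apart in fatty acid synthesis, the pathway that the related factor SREBP1 controls in liver. It was the highest liver for 11 of the 17 listed genes, and for 2633 of all 14031 tested genes. The summed list ranged from 2775 to 9743 CPM in WT and from 3301 to 3982 CPM in TG. Fasn, fatty acid synthase, chosen for mention after seeing its values, had levels of 87.0, 172 and 241 CPM in TG against 48.4, 89.3 and 2304 CPM in WT. Of 16 tested genes of the list, 3 were lower in TG at an unadjusted p under 0.05 and 0 higher, beside 2.37% and 8.68% of all tested genes, and the median log2 fold change was -0.66. The 3 were the lipogenic regulator Thrsp (-3.01), the acetyl-CoA synthetase Acss2 (-0.61) and the acyltransferase Gpam (-0.46). The groups overlapped for Thrsp, at 572 CPM in WT replicate 3 and 12.1 to 55.9 CPM in the other livers, and not for Acss2 and Gpam. Relative to the WT mean, the median log2 level of the tested list was -0.76, -0.49 and -0.07 in TG and -0.42, -0.59 and 1.13 in WT. The part of the lipogenic level of WT replicate 3 in the overlap of Sqle, Idi1 and Mvd between the groups was not tested.

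The groups overlapped for all 4 genes that control SREBP2. Srebf2, the gene of SREBP2 itself, lay at 62.3, 76.9 and 61.8 CPM in TG and at 47.0, 67.7 and 61.9 CPM in WT, a log2 fold change of 0.19. Scap, its escort protein, lay at 119.6, 77.6 and 77.1 CPM in TG and at 107, 119.8 and 73.1 CPM in WT, a log2 fold change of -0.13. The highest Srebf2 value was in TG replicate 2 and the highest Scap values in TG replicate 1 and WT replicate 2. Srebf2 also hosts the microRNA gene Mir33, whose level these counts do not give.

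The retention proteins Insig1 and Insig2 varied widely within both genotypes. Insig1, itself an SREBP2 target, lay at 88.4, 103 and 129 CPM in TG and at 42.5, 185 and 163 CPM in WT, a log2 fold change of -0.28 (SE 0.49). Insig2, whose liver transcript is known to fall with insulin, lay at 634, 478 and 228 CPM in TG and at 515, 205 and 163 CPM in WT, a log2 fold change of 0.60 (SE 0.54) that ran from 0.27 without TG replicate 1 to 1.28 without WT replicate 1. WT replicate 1 had the lowest Insig1 of the 6 livers and the second highest Insig2. TG replicate 3 had the highest Insig1 and the lowest Insig2 of its group.

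Stard4 and Mylip move cholesterol and limit its uptake. Stard4, a soluble sterol carrier, lay at 59.0, 57.0 and 93.9 CPM in TG and at 38.4, 124 and 142 CPM in WT, a log2 fold change of -0.54 (SE 0.46) that ran from -0.93 without WT replicate 1 to -0.21 without WT replicate 3. It followed Insig1 in having its lowest value in WT replicate 1 and its highest TG value in TG replicate 3. Mylip, an LXR-induced ubiquitin ligase that degrades lipoprotein receptors, lay at 11.9, 11.0 and 16.5 CPM in TG and at 20.9, 6.88 and 13.3 CPM in WT, a log2 fold change of -0.06 whose sign changed with the setting. The groups overlapped for both genes.

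Abcg1 was the export gene whose groups did not overlap, and it had the smallest unadjusted p of the 29. Abcg1 moves cholesterol from cells to high-density lipoprotein and is abundant in macrophages. TG livers held 21.0, 27.0 and 13.7 CPM of Abcg1, against 8.06, 8.55 and 10.5 CPM in WT livers. Every TG value was above every WT value, with TG replicate 3 nearest to WT. The means were 20.5 ± 6.66 and 9.02 ± 1.26 CPM (SD, n = 3 each), and the log2 fold change was 1.18 (SE 0.28). The unadjusted p was 0.003176, and the adjusted p was 0.3434 with edgeR, 0.02218 with DESeq2 and 0.5428 with limma voom. Leaving out 1 library at a time kept its log2 fold change between 0.93 and 1.38, and leaving out TG replicate 3 brought the adjusted p of edgeR to 0.0425, a fit in which 2.11% of all genes were called.

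Macrophage markers, like Abcg1, were higher on average in TG livers. All 20 listed markers of Kupffer cells and macrophages were higher in TG at an unadjusted p under 0.05 in edgeR (8.68% of all genes). Of the 20, 0 passed its adjustment (0% of all genes), and DESeq2 called 16 as higher (2.52%). The groups overlapped for 13 of the 20, and 7 were higher in every TG liver (9.22%). The median log2 fold change of the 20 was 2.12. Summed, they came to 2820, 4882 and 885 CPM in TG livers against 625, 509.5 and 876 CPM in WT livers, so TG replicate 3 lay next to WT replicate 3. The most abundant were Cd5l, Lyz2 and Clec4f, and Cd5l lay at 571, 1017 and 162 CPM in TG and at 122, 91.2 and 154 CPM in WT. TG replicate 2 was highest and TG replicate 3 lowest of the TG livers for both Abcg1 and the marker sum. Of the WT livers replicate 3 was highest for both, while the lowest was replicate 1 for Abcg1 and replicate 2 for the sum. Abcg1 lay at 13.7 CPM in TG replicate 3 and at 10.5 CPM in WT replicate 3, beside marker sums of 885 and 876 CPM. In bulk tissue more cells of a type and more RNA per cell cannot be told apart, and the part of macrophage RNA in the Abcg1 difference was not tested. Neutrophil markers, led by S100a9, Ngp and S100a8, summed to 140, 189 and 6.35 CPM in TG and to 9.84, 3.25 and 6.40 CPM in WT.

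Markers of the other cell types had median log2 fold changes of 0.30 (endothelial), 0.22 (stellate), 0.07 (cholangiocyte) and 0.55 (lymphocyte). Summed levels were 295 to 323 CPM in TG and 112 to 337 CPM in WT for endothelial markers (led by Stab2, Stab1 and Fcgr2b), and 492 to 571 CPM in TG and 428 to 496 CPM in WT for stellate cell markers (led by Dcn, Ecm1 and Reln). They were 35.7 to 51.9 CPM in TG and 32.6 to 39.1 CPM in WT for cholangiocyte markers (led by Spp1, Sox9 and Epcam), and 8.48 to 34.1 CPM in TG and 5.45 to 12.4 CPM in WT for lymphocyte markers (led by Ighm, Nkg7 and Cd79b).

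The remaining export genes overlapped between the groups. Nr1h3, the gene of LXRα, lay at 104, 103 and 70.1 CPM in TG and at 81.8, 102 and 90.0 CPM in WT, a log2 fold change of 0.02. Abca1, which lipidates apolipoprotein A-I, lay at 140.4, 324 and 148 CPM in TG and at 260.0, 191 and 216 CPM in WT, a log2 fold change of -0.12. Both changed sign under at least 1 alternative. TG replicate 2 was the highest liver for Abca1, and the other TG livers were the lowest.

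Abcg5 and Abcg8 are partners in the transporter that sends sterols into bile. Abcg5 lay at 102, 97.7 and 125 CPM in TG and at 150.2, 190.0 and 64.7 CPM in WT, a log2 fold change of -0.32. Abcg8 lay at 106, 70.7 and 114 CPM in TG and at 154, 190.4 and 69.5 CPM in WT, a log2 fold change of -0.51 that ran from -0.82 without WT replicate 3 to -0.20 without WT replicate 2. For both genes WT replicates 1 and 2 were the highest livers and WT replicate 3 the lowest. The ratio of Abcg5 to Abcg8 in CPM was 0.962, 1.38 and 1.09 in TG and 0.976, 0.998 and 0.931 in WT. The genes lie on opposite strands of chromosome 17, and in the GENCODE annotation their starts are 6709 bases apart with Abcg8 beginning inside Abcg5. Since the strand setting of the counting is not known, reads from the overlap may not be told apart, and both levels and their ratio are uncertain. RefSeq lists an Abcg8 start at the same place and another beyond the start of Abcg5. The 109 bases between that second Abcg8 start and the Abcg5 start, chr17:84683012-84683120 (GRCm38.p6, plus strand), are shown because they lie before both of these starts.
Abcg5 and Abcg8: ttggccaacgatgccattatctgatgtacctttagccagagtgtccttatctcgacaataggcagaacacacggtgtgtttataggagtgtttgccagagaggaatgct
The stretch held no exact match of TCACNCCAC, CCAAT or the LXR repeat letters (AGGTCA given again after a spacer of 4 bases). CCAAT matches stood just beyond it, at 114 to 110 and at 175 to 171 bases before that second Abcg8 start. The exact LXR repeat stood before 0 of the 24 matched members and in 0.0152% of all windows and before 0.0148% of all genes. Repeats that depart from these letters were not searched, so the 0 does not show that LXR elements are absent.

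**Figure D5:**
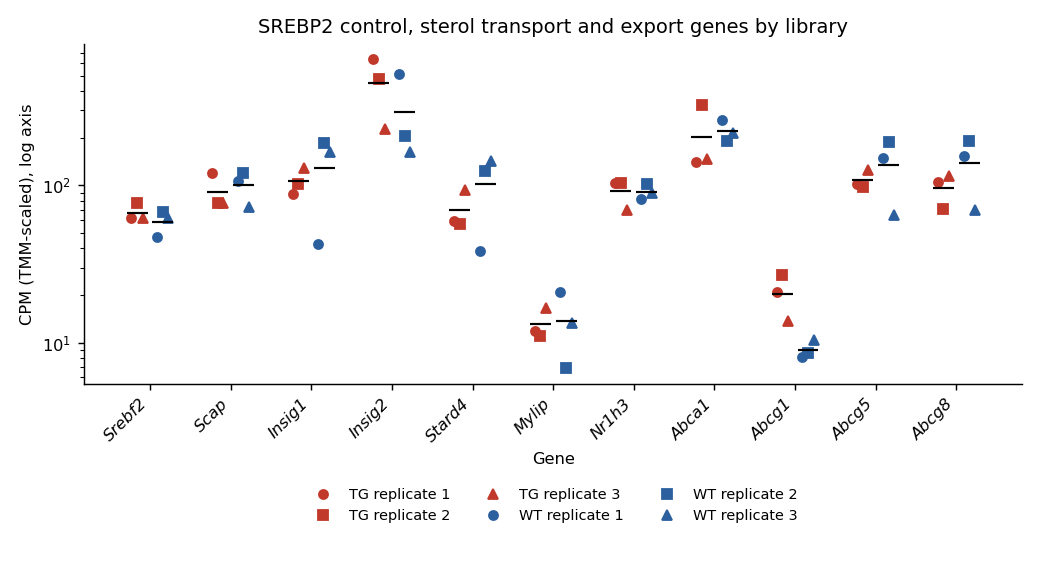
CPM of the 11 control, transport and export genes in each TG and WT liver (log axis, 1 point per mouse, lines at the group means). Abcg1 is the one gene with every TG point, 13.7 to 27.0 CPM, above every WT point, 8.06 to 10.5 CPM.

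Levels between genes were compared per length of merged exons, as TPM in WT livers. Insig2 had the highest mean, 213 ± 134 TPM, followed by Ebp at 120.1 ± 14.4, Sc5d at 119.8 ± 27.6, Abcg5 at 119.5 ± 38.8 and Insig1 at 108 ± 67.3 TPM (SD, n = 3), and these neighbours did not differ beyond their spread. The lowest were Sqle at 6.29 TPM, Abcg1 at 3.23 ± 1.11 TPM and Fdps at 0.847 ± 0.889 TPM. Abcg1 thus had the lowest WT level of the 5 export genes.

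Among the other genes of sterol handling, edgeR called 0 after adjustment, and counts at an unadjusted p under 0.05 are read against 8.68% higher and 2.37% lower over all genes. In the SREBP2 activation and turnover machinery 0 of 12 genes passed that threshold (median log2 fold change -0.16), and in the isoprenoid branch, which uses mevalonate products for prenylation, dolichol and ubiquinone, 0 of 10 (median -0.17). Of 6 tested genes of sterol esterification 1 was higher and 1 lower. Soat1, which esterifies cholesterol for storage, lay at 20.6, 30.9 and 9.19 CPM in TG and at 6.16, 5.67 and 9.31 CPM in WT. Its log2 fold change was 1.51 (SE 0.44), with the same order of TG livers as Abcg1. The groups overlapped for Soat1, with TG replicate 3 just below WT replicate 3. Ces1d, an ester hydrolase of a family of similar genes, lay at 198, 47.3 and 269.6 CPM in TG and at 751, 1447 and 454 CPM in WT, a log2 fold change of -2.37 (SE 0.69).

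Some genes of intracellular transport, uptake, the LXR group and bile acid formation passed the same unadjusted threshold. Of 13 intracellular sterol transport genes 2 were higher, Gramd1b (log2 fold change 1.36) and Gramd1a (0.52), which carry sterol from the plasma membrane to the endoplasmic reticulum, and 1 was lower. The lower one, the carrier Stard5, lay at 101, 101 and 119.5 CPM in TG and at 228, 181 and 178 CPM in WT, a log2 fold change of -0.87 (SE 0.19), with no overlap. Of 8 lipoprotein uptake genes 2 were higher, Cd36 (0.75) and Lrp10 (0.47), and 0 lower. Of 10 tested LXR and RXR genes 2 were higher and 0 lower, Arl4c (1.33) and the phospholipid transfer protein Pltp, which lay at 71.3, 125 and 24.3 CPM in TG and at 18.4, 13.8 and 21.6 CPM in WT (2.03, SE 0.54). Of 5 tested bile acid genes 1 was lower, Cyp7a1, which sets the pace of bile acid formation from cholesterol, with 21.4, 20.8 and 38.2 CPM in TG and 204, 54.7 and 198 CPM in WT (-2.505, SE 0.52). DESeq2 called Soat1, Ces1d, Gramd1b, Stard5, Pltp and Cyp7a1 among these lists, beside 2.78% of all genes (2.52% higher in TG). The adjusted p-values of DESeq2 ran from 0.0007239 for Cyp7a1 to 0.04519 for Soat1, and limma voom called 0.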

How the data were processed

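Liver RNA of 3 TG and 3 WT mice was sequenced. The authors deposited a table of raw counts, whole numbers of reads for each Ensembl identifier. TopHat, Cufflinks and mm10 are named, with no version, per the submitters' processing notes. How reads were counted, with which annotation and whether by strand, is not given in the sources used here. Reads of overlapping genes on opposite strands (Abcg5 with Abcg8, Fdft1 with Ctsb, Cyp51 with Akap9, Mvd with Gm20388) may therefore not be told apart. The labels call the molecule genomic DNA, but their protocols describe RNA.

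The members and lists were chosen with earlier results of these data known. Named genes were all 29 members, up to 4 genes of each other pathway list with the smallest unadjusted p under 0.05, up to 3 most abundant genes of each marker list, and Slc7a11. Some genes of these pathways are not reported here. Symbols matched 52403 of 52550 identifiers. Groups were compared with edgeR 4.0.16 (R 4.3.3; TMM, filterByExpr by group, robust quasi-likelihood test, two-sided, Benjamini-Hochberg adjustment over 14031 genes, threshold 0.05). The standard error is the log2 fold change over the root of the F value. The fits were tested on simulated data. Alternatives were DESeq2 1.42.0, limma voom 3.58.1, other scalings and filters, a replicate block, and each library left out. Lengths for TPM were the merged exons of all transcripts of a gene in GENCODE M21, which can exceed the length of a single transcript. Replicates are separate mice, per the series' design text. The 3-count limit covers counting error only.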

Additional observations from a re-analysis of the deposited data

How the results depend on the processing

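The groups held 3 mice each, with a common coefficient of variation of 0.329. Of the 29 genes, 17 kept the sign of their log2 fold change in all 14 alternatives, including 12 of the 18 synthesis enzymes, and 12 did not. Scaling by library size alone moved the median log2 fold change of all genes from -0.03 to 0.09 and reversed Ebp (0.068), Sc5d (0.020), Scap (0.012) and Mylip (0.053). Limma voom reversed Hsd17b7 (-0.0057) and Mylip (0.031) and called 1 gene in all, Slc7a11. DESeq2 called 390 genes, 1 of them a member (Abcg1). The labels state no pairing of mice by replicate number. Same-numbered livers had correlations of 0.14, -0.21 and 0.09 in their deviations from the group means, and differently numbered livers of -0.24 to 0.12. These values cannot show whether a litter, cage or day was shared. With the replicate block, edgeR called 0 genes, 4 members were higher at an unadjusted p under 0.05 (6.14% of all genes), and Hsd17b7 (-0.0050) and Mylip (0.055) reversed. Leaving out 1 library at a time gave 0 to 305 genes called (305 without TG replicate 3, 0 otherwise), 759 to 2328 genes at an unadjusted p under 0.05, 0 to 1 member called, 1 to 10 members higher and 0 to 3 lower at that threshold. Over these fits, log2 fold changes that crossed 0 ranged from -0.28 to 0.052 (Pmvk), -0.56 to 0.15 (Lss), -0.49 to 0.43 (Tm7sf2), -0.47 to 0.32 (Hsd17b7), -0.31 to 0.10 (Ebp), -0.21 to 0.0054 (Sc5d), -0.37 to 0.019 (Scap), -0.71 to 0.056 (Insig1), -0.38 to 0.38 (Mylip), -0.072 to 0.16 (Nr1h3), -0.62 to 0.090 (Abca1) and -0.65 to 0.0092 (Abcg5). The cause was not tested.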
